A study of Caenorhabditis elegans with 9 samples.

Results

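The fbxa genes are the largest lettered family of F-box genes in the deposited table of Caenorhabditis elegans, with 192 members among 20389 listed genes. Members were all genes whose symbol is fbxa followed by a number. RNA was sequenced from whole larvae of the L2 stage in 3 genotypes with 3 libraries each. The first was wild type, strain N2. The second was homozygous for hsf-1(ok600), a deletion allele of the gene for the heat shock transcription factor, and these ok600 larvae are called the mutant here. The third, strain AM1061, carried hsf-1(ok600) together with the transgene rmSi1[hsf-1::gfp] and is called the transgenic line. The ok600 allele is thus shared by the mutant and the transgenic line, and the sources used here do not name the transgene's promoter. Mutant larvae were GFP-negative offspring of OG576, in which ok600 is kept over hT2, a balancer of chromosomes I and III that carries bli-4(e937), let-?(q782) and the GFP array qIs48, so their mothers had a balancer chromosome. Each library was a pool of 500 larvae from several collections, taken 30 h after an egg lay of 2 h at 20 °C, and no heat shock was named.

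F-box proteins are the parts of SCF ubiquitin ligases that choose the substrate. The F-box binds a Skp1-related adaptor (an skr gene product in worms), the adaptor binds a cullin such as CUL-1, the cullin binds a RING protein, and the rest of the F-box protein holds the protein to be ubiquitinated. Nematodes have a great expansion of F-box genes, and many fbxa proteins also carry the FTH domain first described in FOG-2. FBXA-75 and FBXA-158 were found to act with CUL-6 and the adaptors SKR-3, SKR-4 and SKR-5 in the ubiquitin ligase of the intracellular pathogen response, a program that worms turn on against microsporidia and the Orsay virus.

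The table gives 1 FPKM value (sequenced fragments scaled to transcript length and to the size of the library) for each gene in each genotype, pooled by the authors over its libraries, with a lower and an upper bound whose level is not stated. No spread between libraries can therefore be given, the sequencing depth is unknown, and the range in parentheses after a value is the deposited interval. Where 3 values follow each other they are those of wild type, mutant and transgenic line, in that order. hsf-1 itself was listed at 25.3 (7.62 to 43.1) in wild type, 21.4 (6.52 to 36.4) in ok600 larvae and 69.3 (29.4 to 109) in the transgenic line, with q = 0.749 for the mutant against wild type in the authors' deposited table. It is not known here whether those reads fall in the deleted stretch, so this value does not check the labels. Of 25 marker genes of 7 tissues, 24, 25 and 25 were at 1 FPKM or more, and the exception was the coelomocyte marker unc-122, at 0.909 in wild type.

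Most fbxa genes were low in these larvae, and more of them were above threshold in the mutant than in either other genotype. A level of 1 FPKM or more was listed for 46 of 192 genes (24.0%) in wild type, 77 (40.1%) in ok600 larvae and 41 (21.4%) in the transgenic line. Over all genes the shares were 58.1%, 62.7% and 58.1%, so the family's share was 16.1 percentage points higher in the mutant than in wild type and that of all genes 4.57 points. In whole larvae, fewer cells of a type and less RNA per cell cannot be told apart. The summed FPKM of the neuron markers was 715, 1088 and 762 in wild type, mutant and transgenic line, that of the pharynx markers 231, 153 and 214 and that of the intestine markers 1425, 1237 and 1768. Of the pharynx markers, 0 were higher and 2 lower in the mutant than in wild type. Each of these 2 had an unadjusted p below 0.05 in the authors' deposited table, and 0 passed q. The neuron markers (3 higher, 1 lower) and the intestine markers (2 higher, 3 lower) went both ways. Of the neuron markers snb-1 rose, from 303 to 624 (q = 0.00249 in the authors' deposited table), while rab-3 was listed at 186 and 180 in wild type and mutant; of the intestine markers act-5 was listed at 1127 and 904 and ifb-2 at 125 and 188. The sums of the germ line markers were 66.1, 86.8 and 73.9 (3 higher, 1 lower in the mutant than in wild type). Those of the hypodermis markers were 401, 467 and 503 (3 higher, 1 lower). Body wall muscle markers summed to 4605, 4915 and 5030 (1 higher, 3 lower), and coelomocyte markers to 4.67, 5.92 and 4.78 (2 higher, 0 lower). The part of tissue makeup in the fbxa counts was not tested.

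The mutant also stood highest by other measures of the family. The median fbxa gene was listed at 0.0897 in wild type, 0.547 in ok600 larvae and 0.154 in the transgenic line, where the median of all genes was 2.80, 3.68 and 2.56. A level of 5 FPKM or more was listed for 7, 23 and 8 members, and of 10 FPKM or more for 3, 10 and 2. A value of 0 was listed for 82 members in wild type (42.7%), 40 in ok600 larvae (20.8%) and 63 in the transgenic line (32.8%). Zeros were also fewer in the mutant over all genes, with 26.6%, 17.0% and 22.3%, and how far the depth of the libraries moves these counts was not tested. The members divided into 83 at 1 FPKM or more in at least 1 genotype, 72 above 0 but below 1 throughout, and 37 listed at 0 in every genotype. Of the 83, 32 were at or above 1 in every genotype.

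The threshold was crossed more often upwards than downwards between wild type and the mutant. Of the 146 members below 1 in wild type, 37 were at or above 1 in the mutant (25.3%, against 15.9% of all such genes), and of the 46 at or above 1 in wild type, 6 were below it in the mutant (13.0%, against 3.56%). Both shares were above those of all genes, and the median fbxa gene was lower than the median of all genes. Between the mutant and the transgenic line the crossing went one way: 36 of the 77 members at or above 1 in the mutant were below 1 in the transgenic line (46.8%, against 9.72% of all genes), and 0 of the other 115 crossed upwards (against 4.09%). The mutant libraries enter both of these counts, so they are not independent of each other.

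**Figure D1:**
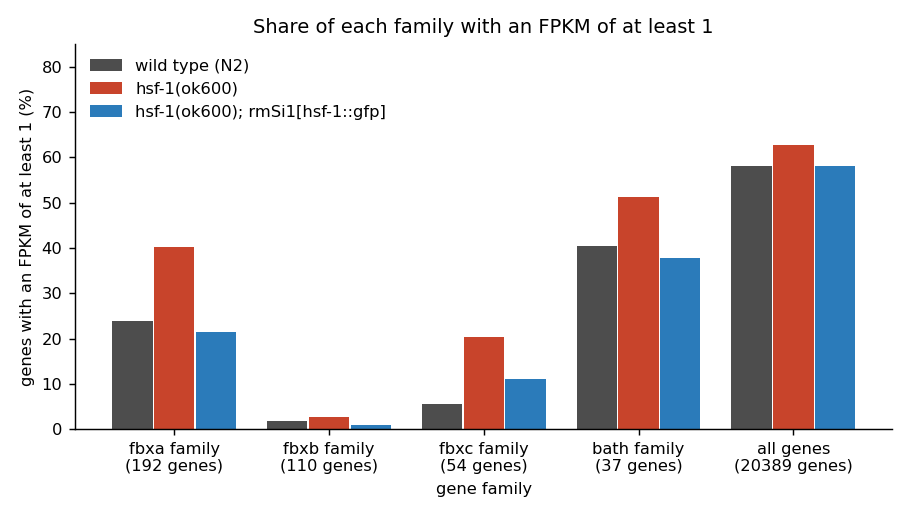
Share of genes with a deposited level of 1 FPKM or more (%), by gene family and genotype; the number of genes in each family stands under its name, and there is no error bar because each share is a count of single pooled values. The fbxa bars stand at 24.0%, 40.1% and 21.4%, the fbxc bars at 5.56%, 20.4% and 11.1%, and those of all genes at 58.1%, 62.7% and 58.1%.

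Other large families of ubiquitin ligase adaptors are set beside fbxa in the plot of shares by family. The fbxb genes, a related F-box family, were nearly silent, with 2, 3 and 1 of 110 at 1 FPKM or more. The fbxc genes had 3, 11 and 6 of 54. The bath genes, whose MATH and BTB domains serve cullin CUL-3 in place of CUL-1, had 15, 19 and 14 of 37. No test of the difference between families was made.

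Among the 83 fbxa genes at 1 FPKM or more in some genotype, the mutant held the highest value for 62 (74.7%), wild type for 14 (16.9%) and the transgenic line for 7 (8.43%). Over all such genes the shares were 42.6%, 28.8% and 28.5%. Of the 83, 55 reached 1 FPKM in wild type or the transgenic line. The others passed the filter through the mutant alone, so they were highest in the mutant by construction. Over all genes, at least 12563 of 13405 reached 1 FPKM outside the mutant, so the shares of all genes do not correct for this. The median difference of the mutant from wild type over the same 83 members was 0.99 on the log2(FPKM + 1) scale. Its quartiles were 0.17 and 1.54, and the median for all such genes was 0.15. In bands of mean FPKM, the mutant was highest for 69.2% of members from 1 to 2 (58.9% of all genes), with a median difference of 0.63 (0.47). From 2 to 5 it was 82.1% (51.3%) and 0.81 (0.30), and at 5 and above 53.8% (36.8%) and 1.38 (0.06). Below a mean of 1 the share was 77.8% from 0.5 to 1 (57.5%) and 53.7% from 0.1 to 0.5 (61.9%). Under 0.1 it was 75.9% (61.7%). The log2(FPKM + 1) scale understates the change of low genes. Without a filter, 124 of the 192 members were higher in the mutant than in wild type (64.6%, against 52.9% of all genes). Another 30 were lower (15.6%, against 31.6%) and 38 were equal.

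A level at least 2 times that of wild type was listed in the mutant for 48 of these 83 members (57.8%, against 20.6% of all genes under the same filter), and a level of at most 1/2 for 9 (10.8%, against 12.04%). Members listed at 0 in wild type are counted as higher here, although no fold is given for them. Of the 77 members at 1 FPKM or more in the mutant, 37 were below 1 in wild type (48.1%, against 10.6% of all genes). These passed the filter through the mutant alone, so the filter favours the higher count. Over all genes a 2-fold difference was more frequent at low levels, so the shares were also read within bands of mean FPKM over the genotypes. In the band from 1 to 2, 14 of 26 members were at least 2-fold higher (53.8%, against 46.0% of all genes in the band). From 2 to 5 it was 14 of 28 (50% against 31.6%), with 0 members at least 2-fold lower (against 15.1%). At 5 and above it was 7 of 13 (53.8% against 11.6%), with 3 lower (23.1% against 10.6%). Below a mean of 1 it was 12 of 18 from 0.5 to 1 (66.7% against 51.8%), 28 of 41 from 0.1 to 0.5 (68.3% against 63.4%) and 26 of 29 above 0 and below 0.1 (89.7% against 67.4%). The members' share was above that of all genes in each of the 6 bands, by the least from 0.1 to 0.5. In the low bands any mutant value above a wild-type 0 counts as 2-fold higher. The mean that sets the bands also includes the mutant value, so the band shares are a description only.

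**Figure D2:**
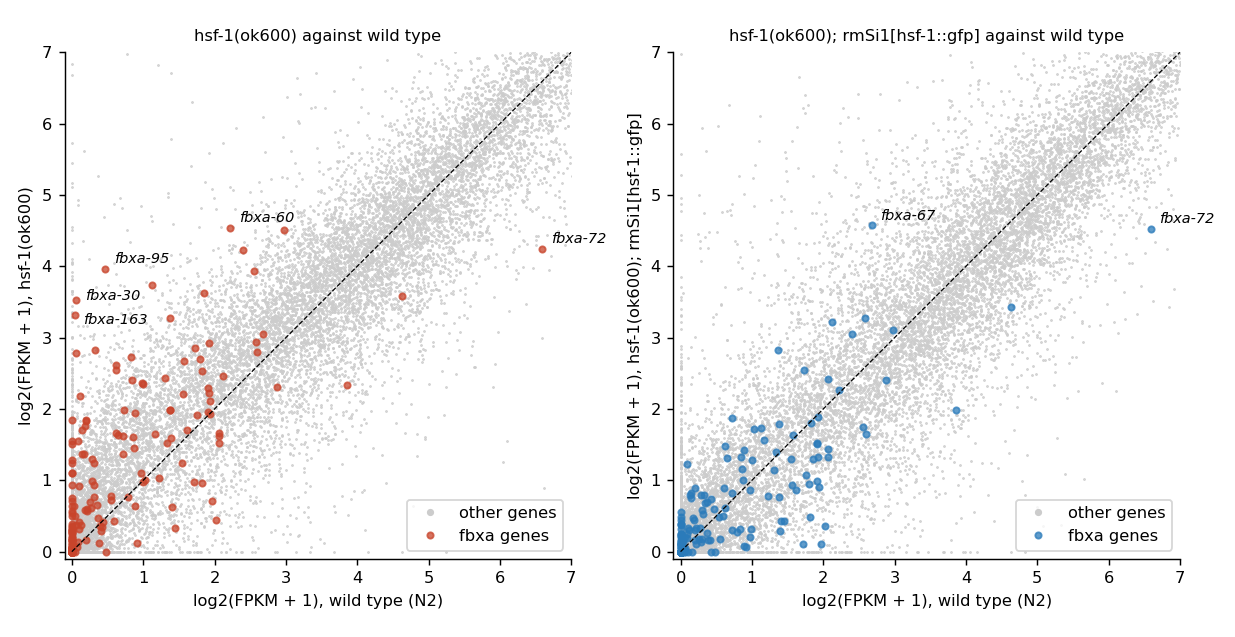
Each point is a gene at its deposited level in wild type (horizontal axis) and in the mutant (left) or the transgenic line (right, vertical axis), on the log2(FPKM + 1) scale, with fbxa genes in colour, other genes in grey, a dashed line of equal levels and both axes drawn up to 7. In the left panel most coloured points lie above the line, with 124 of 192 members higher and 30 lower (52.9% and 31.6% of all genes). In the right panel they lie on both sides, with 76 higher and 59 lower (42.7% and 37.8% of all genes).

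Few of these differences passed the deposited test of the mutant against wild type. A call required q no higher than 0.05, as deposited, and 1 FPKM or more in either genotype. The authors' deposited table tested 79 members, all of them among the 83 above, and marked the other 113 as not tested. In it 4 members rose in the mutant (5.06% of those tested, against 2.93% of all 12615 tested genes), 1 fell (1.27%, against 2.9%) and 74 did not pass. In either direction 5.83% of all tested genes were called. At an unadjusted p below 0.05 the authors' deposited table held 14 members, 12 higher (15.2%, against 10.5% of all tested genes) and 2 lower (2.53%, against 8.99%). The intervals were wide: for members at 1 FPKM or more the median half-width came to 102%, 95.7% and 103% of the FPKM, and the lower bound was 0 for 33 of 46, 31 of 77 and 29 of 41.

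The 4 genes that rose were fbxa-60, fbxa-166, fbxa-158 and fbxa-116. fbxa-60 (T12B5.10, chromosome III, 944769 to 946281, build ce10) was listed at 3.66 (0.364 to 7.01) in wild type, 22.2 (5.64 to 38.8) in ok600 larvae and 3.83 (0.273 to 7.37) in the transgenic line. The mutant stood 6.06-fold above wild type, with q = 0.0103 in the authors' deposited table, and 5.80-fold above the transgenic line, whose level lay beside that of wild type. The mutant interval overlapped both others. It was the only one of the 4 with a value above 0 in wild type.

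The other members that rose were listed at 0 in wild type, so no fold is given. fbxa-166 (C08E3.9, chromosome II, 1616919 to 1619011) was at 2.58 (0 to 5.14) in ok600 larvae and 0.402 (0 to 1.17) in the transgenic line. fbxa-158 (C08E3.10, chromosome II, 1619804 to 1621268), the adaptor known from the pathogen response, was at 1.38 (0 to 3.23) and 0.150 (0 to 0.447). fbxa-116 (Y113G7B.1, chromosome V, 20187679 to 20188851) was at 1.16 (0 to 3.61) and 0.0783 (0 to 0.211). Each had q = 0.00249 and the smallest p of the authors' deposited table, 5e-05, although the mutant interval began at 0.

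These 3 calls share a value of 0 in wild type. In the authors' deposited table, 63 of 115 tested genes listed at 0 in wild type passed q (54.8%), 44 of them at the smallest p, while 0 of 43 tested genes above 0 and under 0.1 in wild type passed, with a lowest p of 0.0607. Among the members it was 3 of 5 against 0 of 5. Levels and intervals are therefore given for members of both kinds.

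The members just above 0 in wild type include the clearest separations of deposited intervals. fbxa-30 (ZC47.4, chromosome III, 1274506 to 1275580) was listed at 0.0433 (0 to 0.348) in wild type, 10.6 (1.74 to 19.4) in ok600 larvae and 0.0395 (0 to 0.348) in the transgenic line. fbxa-163 (C08E3.6, chromosome II, 1609262 to 1610722) was listed at 0.0305 (0 to 0.262), 8.96 (1.57 to 16.3) and 0.0292 (0 to 0.262). fbxa-162 (C08E3.5, chromosome II, 1607882 to 1609008), annotated as a pseudogene in RefSeq, was listed at 0.0378 (0 to 0.312), 5.92 (0.728 to 11.02) and 0. For each of these genes the mutant interval lay wholly above those of wild type and the transgenic line, and the q in the authors' deposited table was 0.542.

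fbxa-95 (F28F8.4, chromosome V) was listed at 0.382 (0 to 0.657) in wild type, 14.6 (2.73 to 26.3) in ok600 larvae and 0.510 (0 to 1.18) in the transgenic line, again with a separate mutant interval, and with q = 0.403 in the authors' deposited table. It shares the locus 15571470 to 15574087 with fbxa-94, so reads of the neighbours may have been divided between them; fbxa-94 was listed at 0, 1.92 and 0.0696. Counted by intervals that do not overlap, fbxa-30, fbxa-95, fbxa-162 and fbxa-163 were higher in the mutant than in wild type (4 of 83, against 0.622% of all genes) and fbxa-72 was lower (1, against 0.265%).

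fbxa-72 fell in the mutant by both rules. It was the family's highest gene in wild type. fbxa-72 (F31F4.15, chromosome V, 674912 to 676754) was listed at 95.3 (36.5 to 154) in wild type, 18.0 (4.12 to 31.7) in ok600 larvae and 22.1 (5.81 to 38.3) in the transgenic line. The mutant stood 5.29-fold below wild type, with q = 0.00249 in the authors' deposited table. The transgenic line stood 4.31-fold below wild type, with intervals that overlap. The low level was thus listed for both genotypes that carry ok600, the opposite order to fbxa-60. It also weighs on the family's sum, which was 275, 401 and 192 with it and 180, 383 and 170 without it.

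**Figure D3:**
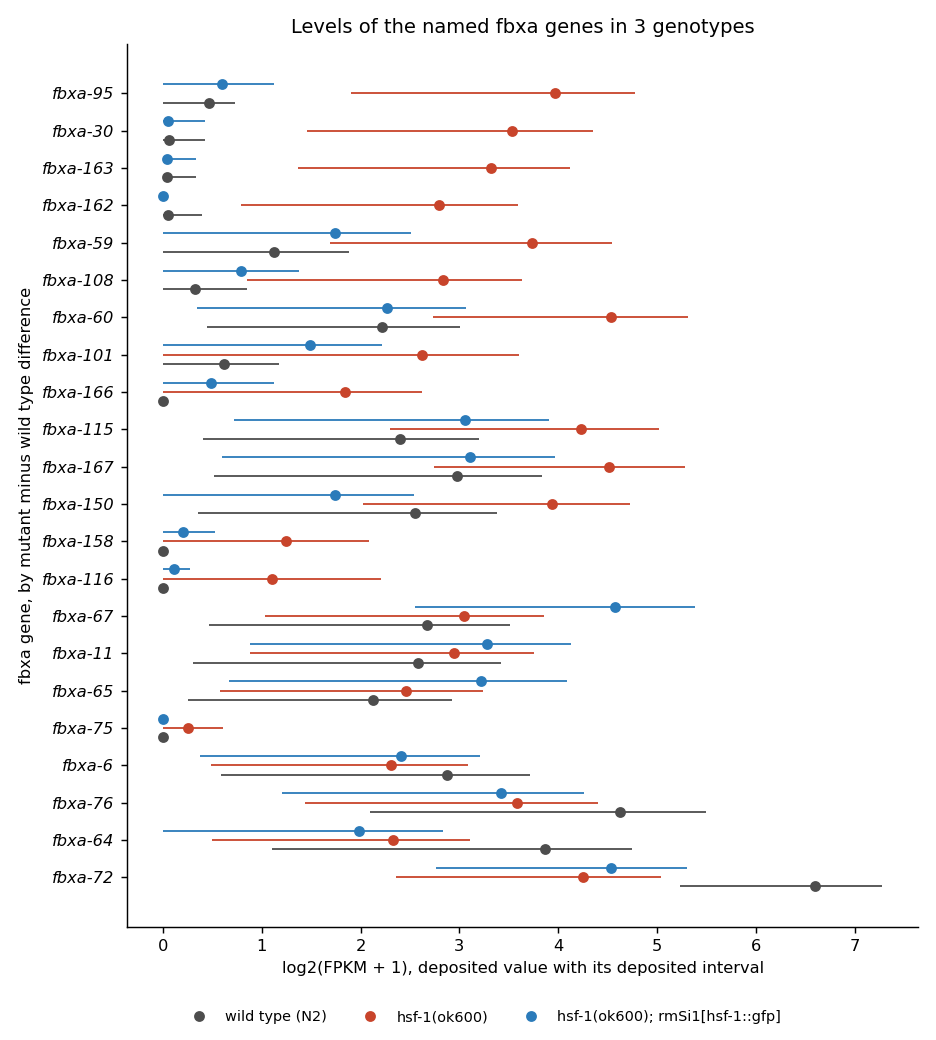
Deposited level of the 22 fbxa genes named by a fixed rule in wild type (grey), mutant (red) and transgenic line (blue), on the log2(FPKM + 1) scale with the deposited interval as a line, ordered by the difference of the mutant from wild type. At the top fbxa-95, fbxa-30, fbxa-163 and fbxa-162 have a mutant interval apart from both others, and at the bottom fbxa-72 is highest in wild type, at 95.3 FPKM.

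Further members with a high mutant level did not pass the test. fbxa-167 (C31C9.3, chromosome II) was listed at 6.89 in wild type, 21.8 in ok600 larvae and 7.60 in the transgenic line, with q = 0.101 in the authors' deposited table. fbxa-115 (Y113G7B.3, chromosome V), next to fbxa-116, was listed at 4.27, 17.7 and 7.31, with q = 0.0697 there. fbxa-59 (T12B5.8, chromosome III), the neighbour of fbxa-60, was listed at 1.19, 12.3 and 2.33, with q = 0.0899 there. All of them were highest in the mutant, with the other genotypes below 1/2 of the mutant level.

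fbxa-150 (Y38H6C.11, chromosome V) was listed at 4.88, 14.3 and 2.35 (q = 0.167 in the authors' deposited table). fbxa-101 (F08A8.7, chromosome I) was listed at 0.540, 5.15 and 1.80 (q = 0.455 there). fbxa-108 (F59A1.7, chromosome V) was listed at 0.253 (0 to 0.803), 6.12 (0.803 to 11.4) and 0.728 (0 to 1.61), so that the intervals of wild type and mutant meet at their ends (q = 0.311 there). Again the mutant was highest in each. Of the 12 members higher at an unadjusted p below 0.05, those not yet named were fbxa-24, fbxa-79, fbxa-90 and fbxa-98, looked up for that reason: fbxa-24 was listed at 0.529, 4.85 and 0.858, fbxa-79 at 2.61, 11.3 and 1.46, fbxa-90 at 1.60, 8.69 and 2.46, and fbxa-98 at 0.775, 5.61 and 0.248.

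Some of the more abundant members had other orders. fbxa-76 (Y119D3B.22, chromosome III), the second highest in wild type, was listed at 23.7 (3.28 to 44.0), 10.9 (1.71 to 20.1) and 9.73 (1.31 to 18.1), with q = 0.290 in the authors' deposited table. fbxa-64 (T28A11.21, chromosome V) was listed at 13.5 (1.14 to 25.9), 4.03 (0.416 to 7.58) and 2.96 (0 to 6.13), with q = 0.131 there. Like fbxa-72, both were highest in wild type and low in the genotypes with ok600, but their intervals overlapped in every comparison.

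fbxa-67 (T12B5.11, chromosome III, 949316 to 950600) was highest in the transgenic line, at 5.39 (0.382 to 10.4) in wild type, 7.28 (1.05 to 13.5) in ok600 larvae and 22.8 (4.87 to 40.7) there, 4.24-fold above wild type with intervals that overlap. fbxa-11 was listed at 4.99, 6.69 and 8.71 and fbxa-65 at 3.36, 4.49 and 8.29, the same order of values within wide intervals. fbxa-6 (cTel54X.1), at the left end of chromosome III, was listed at 6.33, 3.94 and 4.30. The q in the authors' deposited table was 0.776, 0.796, 0.800 and 0.633 for fbxa-67, fbxa-11, fbxa-65 and fbxa-6.

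For the transgenic line against wild type there is no deposited test. Of 55 members at 1 FPKM or more in either, 0 were higher and 0 lower with intervals that do not overlap (against 0.557% and 0.127% of all genes), and the median difference over the 83 members was 0.05 on the log2(FPKM + 1) scale (all genes 0.01). At 2-fold, 9 members were higher (16.4%, against 14.9% of all genes) and 20 lower (36.4%, against 15.5%). Within bands of mean FPKM, the lower share was 30.8% at 5 and above (against 10.97% of all genes). From 2 to 5 it was 28.6% (against 24.35%) and from 1 to 2 38.5% (against 25.3%). From 0.5 to 1 it was 27.8% (against 27.2%) and from 0.1 to 0.5 21.95% (against 24.98%). Under 0.1 it was 3.45% (against 15.4%). The gap to all genes was thus narrow from 0.5 to 1 and from 2 to 5, and reversed below 0.5. fbxa-72, fbxa-76 and fbxa-64 are among the 20 lower members, and so is fbxa-35, named after its values were seen, at 2.90 (0 to 6.84) in wild type, 0.637 (0 to 1.37) in ok600 larvae and 0.0769 (0 to 0.342) in the transgenic line.

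Against the mutant, the transgenic line was lower with separate intervals for 4 of 77 members, fbxa-30, fbxa-95, fbxa-162 and fbxa-163 (against 0.689% of all genes), and higher for 0 (against 0.681%). The median difference was −0.95, with quartiles of −1.36 and −0.31 (all genes −0.18). At 2-fold, 49 members were lower (63.6%, against 20.9%) and 4 higher (5.19%, against 11.9%). Of the 77, 36 reached 1 FPKM in the mutant but not in the transgenic line (46.8%, against 9.72% of all genes), so the filter favours the lower count. Members listed at 0 in the transgenic line are counted as lower, and the mean that sets the bands includes the mutant value. Within bands of mean FPKM, 53.8% of members were at least 2-fold lower from 1 to 2 (against 43.7% of all genes). From 2 to 5 it was 67.9% (against 33.85%) and at 5 and above 53.8% (against 12.3%). From 0.5 to 1 it was 72.2% (against 46.5%) and from 0.1 to 0.5 51.2% (against 55.4%). Under 0.1 it was 79.3% (against 59.9%). The mutant values are those of the comparison with wild type, so the 2 sets of counts share their libraries.

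The fbxa genes lie mostly on chromosomes V and III, with 75 and 68 members, followed by II with 19, X with 17, I with 7 and IV with 6. On chromosome II, 2 members were at 1 FPKM or more in wild type, 10 in ok600 larvae and 2 in the transgenic line, and 15 of 19 were higher in the mutant than in wild type, with the other 4 listed at 0 in every genotype. On chromosome V the counts were 15, 30 and 13, on X 1, 5 and 2, on III 24, 27 and 21, on I 3, 3 and 2 and on IV 1, 2 and 1. On the chromosomes that the balancer of the mutant strain rearranges, 42.9%, 42.9% and 28.6% of the members of I and 35.3%, 39.7% and 30.9% of those of III were above the threshold. On II it was 10.5%, 52.6% and 10.5%, on V 20.0%, 40.0% and 17.3%, on X 5.88%, 29.4% and 11.8% and on IV 16.7%, 33.3% and 16.7%. For all genes the share in wild type and mutant was 67.1% and 70.9% on I, 54.8% and 59.5% on II, 72.2% and 76.6% on III, 57.6% and 61.8% on IV, 44.3% and 49.2% on V and 65.6% and 70.9% on X. No test of a difference between chromosomes was made.

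**Figure D4:**
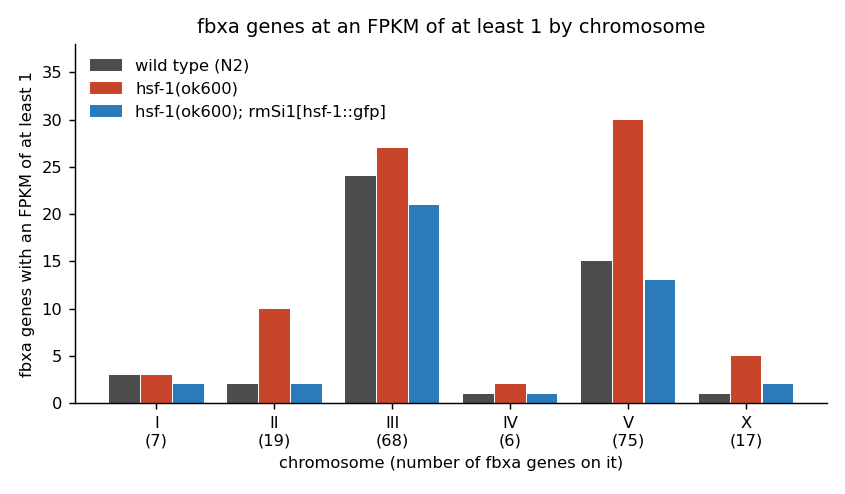
Number of fbxa genes with a deposited level of 1 FPKM or more by chromosome and genotype, with the number of members on each chromosome in parentheses; counts of single pooled values carry no error bar. The mutant bar stands at 10 against 2 and 2 on chromosome II and at 30 against 15 and 13 on V, while on III the bars are 24, 27 and 21.

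Members also lie in tandem. Taking as a cluster at least 4 members with gaps of at most 20 kb, a rule set after the data were seen, 98 members fell into 11 clusters. Inside clusters 25, 38 and 22 members were at 1 FPKM or more, and among the 94 members outside it was 21, 39 and 19, so the higher count in the mutant was present in both.

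The cluster on chromosome II (1606597 to 1624679, 18.1 kb) holds 9 members from fbxa-161 to fbxa-160, among them fbxa-162, fbxa-163, fbxa-166 and fbxa-158. Its highest value was 0.0378 in wild type, 8.96 in ok600 larvae and 0.402 in the transgenic line, and the summed FPKM was 0.0682, 19.3 and 0.621. In the mutant 7 of the 9 were above their wild-type value, and the pseudogene fbxa-159 and fbxa-160 were listed at 0 throughout. Within the 7, the level ran from 0.0640 for fbxa-164 to 8.96 for fbxa-163, so neighbours at a distance of a few kilobases differed widely.

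On chromosome III a cluster of 11 members from fbxa-55 to fbxa-51 (933453 to 963515, 30.1 kb) looked different. In every genotype 7 of its members were at 1 FPKM or more, and the sums were 23.6, 56.3 and 42.5. Side by side it holds fbxa-59 and fbxa-60, highest in the mutant; the pseudogene fbxa-23 (named after its values were seen), highest in wild type at 3.05, with 0.358 in ok600 larvae and 0.281 in the transgenic line; and fbxa-67, highest in the transgenic line. The 30 members between 1236007 and 1349412 of the same chromosome, with fbxa-30, fbxa-75 and fbxa-76 among them, had 11, 13 and 8 at 1 FPKM or more.

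**Figure D5:**
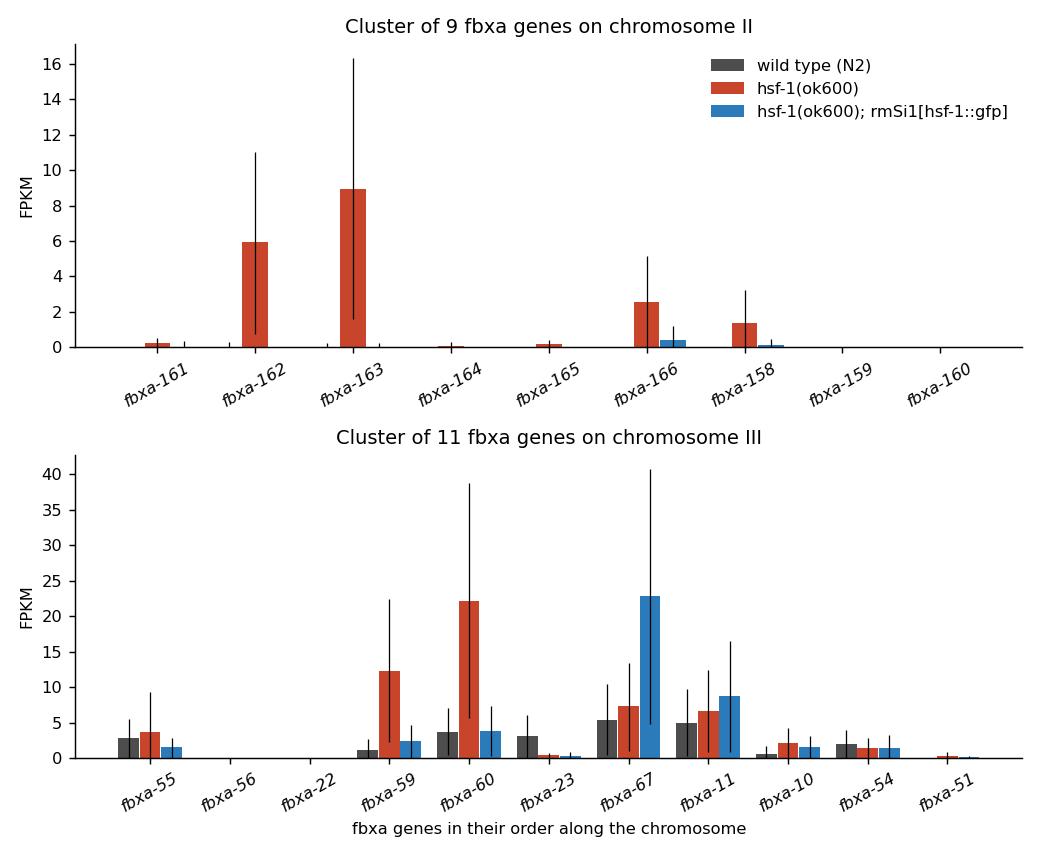
Deposited FPKM of the fbxa genes of a cluster on chromosome II (top) and of a cluster on chromosome III (bottom), in their order along the chromosome, with bars for the genotypes and thin lines for the deposited intervals; the vertical scales differ. In the top panel only the mutant bars exceed an FPKM of 1, at fbxa-162, fbxa-163, fbxa-166 and fbxa-158, while in the bottom panel fbxa-60 peaks at 22.2 in the mutant, and fbxa-67 at 22.8 in the transgenic line.

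On chromosome V, the 4 members from fbxa-116 to fbxa-113 (20187679 to 20204472) enclose fog-2, an F-box gene of the same kind that promotes sperm formation in hermaphrodites. Their summed FPKM was 5.27 in wild type, 23.0 in ok600 larvae and 8.83 in the transgenic line, while fog-2 was listed at 0.710, 2.08 and 0.640 and its paralog ftr-1 at 4.41, 3.90 and 1.89. Reads of near-identical copies in such clusters may have been assigned to the wrong member, and the sources used here do not say how multiply mapped reads were treated.

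By annotation, RefSeq lists 169 members as protein-coding and 22 as pseudogenes, with fbxa-6 not matched. Of the coding members 41, 70 and 36 were at 1 FPKM or more (24.3%, 41.4% and 21.3%), and of the pseudogenes 4, 6 and 4 (18.2%, 27.3% and 18.2%). In the files 11 members share a locus with another gene, and of the 181 in a locus of their own 44, 73 and 41 were at 1 FPKM or more.

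Within an SCF ligase an F-box protein works together with the core subunits. Of 24 core SCF genes (cul-1, cul-6, rbx-1, rbx-2 and the skr genes), 15 were tested in the authors' deposited table, of which 1 rose (6.67%, against 2.93% of all tested genes), 0 fell (against 2.9%) and 14 did not pass. At an unadjusted p below 0.05 there were 4 higher (26.7%, against 10.5%) and 1 lower (6.67%, against 8.99%). The gene that rose was skr-21, an adaptor gene, at 10.03 (1.28 to 18.8) in wild type, 39.3 (10.6 to 67.8) in ok600 larvae and 11.8 (1.40 to 22.1) in the transgenic line, with q = 0.0383 there. The SCF scaffold gene cul-1 was listed at 25.5, 24.9 and 43.4, and the main adaptor gene skr-1 at 744, 917 and 872. Of 12 genes for the attachment of NEDD8 to cullins and its removal, 0 were called (against 5.83% of all tested genes) and 0 had an unadjusted p below 0.05 in the authors' deposited table (against 10.5% higher and 8.99% lower), and no other tool was run.

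The partners of FBXA-75 and FBXA-158 did not pass the test. cul-6 was listed at 0.840 in wild type, 4.505 in ok600 larvae and 5.30 in the transgenic line, with q = 0.117 in the authors' deposited table. skr-3 was listed at 136, 241 and 159 (q = 0.0972 there), skr-4 at 12.9, 32.9 and 16.8 (q = 0.205) and skr-5 at 0.232, 7.15 and 0.326 (q = 0.468). These skr genes had their highest values in the mutant, as fbxa-158 did, while cul-6 was highest in the transgenic line. skr-5 shares a locus on chromosome V with fbxa-188 and fbxa-189, listed at 2.47, 5.50 and 0.937 and at 0, 1.84 and 0.162, so their values are not separate measurements. fbxa-75 (Y119D3A.1, chromosome III) was listed at 0 in wild type, 0.196 (0 to 0.528) in ok600 larvae and 0 in the transgenic line and was not tested.

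F-box genes outside the lettered families gave 1 call, a rise, among 9 tested in the authors' deposited table (11.1%, against 2.93%). fbxl-1, whose product has leucine-rich repeats, rose from 29.0 (6.80 to 51.1) to 86.9 (37.6 to 136) in the mutant, with q = 0.00893 there, and was at 24.4 (1.18 to 47.6) in the transgenic line. Its locus is shared by 4 genes. Among the related families, 1 fbxc gene rose of 11 tested (9.09%, against 2.93%), fbxc-19, listed at 0, 1.76 and 0.109. Of 20 bath genes tested in the authors' deposited table, there were 0 calls (against 5.83%), with 3 higher (15%, against 10.5%) and 1 lower (5%, against 8.99%) at an unadjusted p below 0.05.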

How the data were processed

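FPKM values with lower and upper bounds, and p-values and q-values for the mutant against wild type, were deposited by the authors, who used TopHat2 and Cuffdiff on ce10, per the submitters' processing notes. Their versions, annotation and strand setting were not stated. Per the labels' protocols, Trizol and a column with DNase were used for extraction, and libraries came from SPIA amplification (Nugen Ovation V2). No label calls the replicates separate cultures, so the deposited p-values may reflect technical spread. Of 20389 genes, 12615 were tested and 7736 marked as not tested.

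The members and lists were chosen with earlier results of these data known. Folds are ratios of deposited FPKM, and log2 differences use a pseudocount of 1. Intervals were compared where either genotype had 1 FPKM or more. Locus starts had 1 added. RefSeq matched 191 of 192 members by sequence name. The value of fbxa-12 and fbxa-48 lay outside its own bounds in wild type. Named members were those called or with separate intervals, the 10 with the highest mean FPKM, the 8 with the largest rise and, of up to 8 allowed, the 4 that were lower in the mutant among those reaching 5 FPKM, and fbxa-75 and fbxa-158, beside called members of the SCF, NEDD8 and pathogen response lists. Others are marked, or are neighbours, sharers of a locus or list members given for comparison. Python 3.11.15 and pandas 2.3.3 were used. The planned promoter motif was not analysed here.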

Additional observations from a re-analysis of the deposited data

How the results depend on the processing

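No paired analysis was possible because the tables hold 1 value per genotype, and leaving out replicates was not run for the same reason. The main limits are these missing replicate values, interval half-widths about as large as the values, an unknown depth, and calls of genes listed at 0 in wild type. The count of 4 fbxa genes that rose became 7 at a q of at most 0.1, 1 at 5 FPKM or more and 1 among genes above 0 in both genotypes (fbxa-60), the last chosen after seeing the data. At 2-fold without the intervals, the transgenic line had 9 members higher and 20 lower than wild type, and 4 higher and 49 lower than the mutant. The counts of 46, 77 and 41 members became 7, 23 and 8 at 5 FPKM or more, and in the transgenic line 62 at 0.5 and 22 at 2. For the mutant against wild type, the median log2 difference of 0.99 became 1.40 with a pseudocount of 0.1, 1.44 with 0.01, 0.19 without a filter and 1.38 at 5 FPKM or more. For the transgenic line against the mutant, −0.95 became −1.46, −1.51, −0.19 and −1.39 under the same settings. The cause of these moves was not tested. In wild type the count was 66 at 0.5 FPKM and 31 at 2, and in the mutant 99 and 58. These and the others, 48 in all, lay within 1.5 times the reported count or 0.1 of the reported median, and none reversed a direction. Some of the 48 had little or no room to move. Calls under centring or without a filter reuse the deposited q, and every tested member already reached 1 FPKM. A stricter filter on a count of 0 can only give 0 again. A count that stayed did not always keep its genes. Intervals that do not overlap again gave 4 members that rose, fbxa-30, fbxa-95, fbxa-162 and fbxa-163, and none of them was called by the deposited test. Centring shifted the genotypes by −0.02 (mutant) and 0.05 (transgenic line). The single genes checked were fbxa-72, fbxa-60, fbxa-158, fbxa-166 and fbxa-116. Of their pairings of gene and setting, 24 stayed on their side of the threshold, and fbxa-60 no longer passed at a q of at most 0.01. Pseudocounts and centring left the deposited q unchanged, so these settings could not move a gene across the threshold.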

Other observations

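The wider list of the intracellular pathogen response, to which fbxa-75 and fbxa-158 are linked by their known roles, held 41 genes (the pals genes, cul-6, skr-3, skr-4, skr-5 and eol-1). Of these 15 were at 1 FPKM or more in wild type, 24 in ok600 larvae and 15 in the transgenic line, and 29 were higher (70.7%, against 52.9% of all genes) and 7 lower (17.1%, against 31.6%) in the mutant than in wild type. Of these, 23 were tested in the authors' deposited table, and 0 were called (against 5.83% of all tested genes), with 5 higher (21.7%, against 10.5%) and 1 lower (4.35%, against 8.99%) at an unadjusted p below 0.05, and no other tool was run. Among the 5 are cul-6, skr-3 and skr-4, which were also counted as higher among the core SCF genes, so the counts of the lists are not independent. pals-6 was listed at 0.366 in wild type, 3.99 in ok600 larvae and 0.783 in the transgenic line, and pals-14 at 0.517, 5.09 and 0.706. pals-19 was highest in wild type, at 13.3, 1.98 and 1.69. pals-5, whose promoter is the usual reporter of the response, was listed at 0, 0.342 and 0.

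Genes next to the chromosome II cluster of fbxa genes were looked up after its values were seen. On its left, the adaptor genes bath-46 and bath-47 were listed at 1.98 in wild type, 13.3 in ok600 larvae and 3.42 in the transgenic line, and at 0.904, 3.81 and 0.629. bath-26, which shares its locus with bath-46, was listed at 2.73, 2.36 and 1.30, and bath-33 at 0, 0.0724 and 0. On its right, C08E3.13 was listed at 30.7, 22.4 and 24.0 and C08E3.1, in the same locus, at 11.5, 11.7 and 1.64, while C08E3.14 and C08E3.15 were at 0 in every genotype. Within the cluster, btb-15 was listed at 0 in every genotype.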
